A study of Homo sapiens with 2 samples.

Results

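Copper enters, crosses and leaves a cell through a small set of proteins, and several of them have been tied to the movement of platinum drugs. The 10 genes described here cover that set: the copper transporters SLC31A1 and SLC31A2, the anion channel subunits LRRC8A and LRRC8D, the copper chaperones ATOX1 and CCS, the copper-handling protein COMMD1, the copper-pumping ATPases ATP7A and ATP7B, and the drug exporter SLC47A1. They were chosen by gene symbol, and all 10 were found among the 26255 genes of the deposited tables. RNA was sequenced from 2 cultures of the human serous ovarian cancer line OVSAHO, 1 library per group. In the first, SMARCA2 expression had been raised (the genotype label says stable) and SMARCA4 knocked down; these SMARCA2-up SMARCA4-down cells are called perturbed cells below. In the second, the control, labelled wild type and named siNC in the series design, neither had been changed. Both were kept in carboplatin, a platinum drug that crosslinks DNA, at 25 µM for 2 days, so no value below compares cells with and without the drug. The sample titles carry numbers whose meaning the labels do not give, so each group may be 1 clone, and how SMARCA4 was knocked down is not stated.

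SLC31A1, also called CTR1, is the high-affinity copper importer of the plasma membrane, and ATOX1 and CCS carry the copper that enters to its acceptors. ATOX1 hands it to ATP7A and ATP7B, which pump copper into the Golgi and, when copper is high, out of the cell. CCS loads copper into the superoxide dismutase SOD1. Cisplatin and carboplatin have been reported to use several of these routes, and the share of platinum that does so in ovarian cancer cells is debated.

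SMARCA2 and SMARCA4, the alternative ATPases of the SWI/SNF chromatin remodelling complex, served as a check of the labels. SMARCA2 was at 2.60 FPKM (fragments per kilobase of RNA per 1000000 fragments mapped) in perturbed cells and 0.205 FPKM in control cells, and SMARCA4 at 4.49 FPKM in perturbed and 27.9 FPKM in control cells. About 8850000 fragments lay behind the perturbed values and 9050000 behind the control values, as estimated from the steps between low values. Of 8 markers of serous ovarian carcinoma, 7 were at 1 FPKM or more in a library, 4 with a ratio above 1 and 3 below, and MUC16 was listed at 0 in perturbed cells and at 0.0608 FPKM in control cells. Past the rule of size given below were KRT7, a keratin, at 119 FPKM in perturbed and 540 FPKM in control cells, and WT1, a transcription factor, at 5.52 FPKM in perturbed and 1.53 FPKM in control cells. With a pseudocount of 5 FPKM the log2 ratio of WT1 was 0.69, short of that rule. Of 8 markers of other cell types, only CD68, at 11.1 FPKM in perturbed and 34.9 FPKM in control cells, reached 1 FPKM, and it was lower by the rule. PTPRC, CD3E and DCN, which mark leukocytes, T cells and fibroblasts, were listed at 0 in both libraries.

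With 1 library per group there is no test between the groups, and each difference is between these 2 libraries. A gene was called higher or lower by a rule of size: at least 1 FPKM in a library and a log2 ratio of FPKM + 1 of at least 1 or at most -1, perturbed over control. Folds are ratios of the deposited FPKM, with 95% exact binomial intervals on estimated fragment numbers. These intervals cover counting error only and say nothing of the spread between cultures. In RNA from a whole culture, fewer cells that express a gene and less RNA per cell cannot be told apart.

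Among the 10 genes, SLC31A2 was lower in perturbed cells and none was higher. ATP7A and ATP7B stayed under 1 FPKM in both libraries, and the other 7 lay within 2-fold. The rule called 7.61% of the 11785 genes at this level lower and 7.85% higher. A count of 1 lower gene among the 8 at this level cannot be told from that background, and what follows describes the genes one by one. The median log2 ratio of the 8 was 0.34, beside -0.06 over all genes at this level, and 0.12 with ATP7A and ATP7B included.

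**Figure D1:**
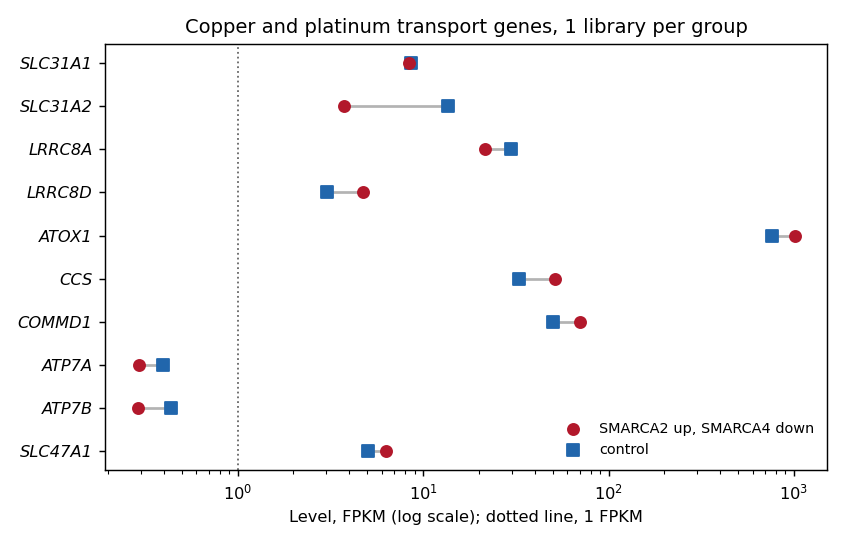
Levels of the 10 genes in FPKM on a log axis, 1 point per library: red circles, SMARCA2-up SMARCA4-down; blue squares, control. The levels run from 0.291 FPKM for ATP7B to 1008 FPKM for ATOX1, and the widest gap on this axis is that of SLC31A2.

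The importers were first. SLC31A1 was at 8.36 FPKM in perturbed cells and 8.66 FPKM in control cells. The fold was 0.965, with a counting interval of 0.828 to 1.12, and its log2 ratio of -0.05 became 0.08 with both libraries scaled to a common sum. SLC31A2, also called CTR2, is a relative of SLC31A1 that sits mostly in membranes of endosomes and lysosomes. In mouse cells it has been reported to affect how the copper-binding outer domain of Slc31a1 is cut off and how much cisplatin the cells take up. SLC31A2 was at 3.73 FPKM in perturbed cells and 13.6 FPKM in control cells, 3.63-fold lower (counting interval 2.68 to 5.06), on about 52.4 fragments in perturbed and 194 in control cells.

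The order of the pair was therefore not the same in the 2 libraries. SLC31A1 had 2.24 times the FPKM of SLC31A2 in perturbed cells and 0.639 times in control cells. Together they were at 12.1 FPKM in perturbed and 22.2 FPKM in control cells. Of the 11785 genes, 168 had a log2 ratio below the -1.62 of SLC31A2, which is 1.43% of them. Among genes with a mean of 5 to 20 FPKM, where SLC31A2 lies, 8.8% were called lower.

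SLC31A2 and SLC31A1 are close together on chromosome 9, with FKBP15 between them in RefSeq gene order. FKBP15, which encodes an endosomal protein, was at 4.78 FPKM in perturbed cells and 5.69 FPKM in control cells. ZFP37, a zinc finger gene on the other side of SLC31A2, was at 0.542 FPKM in perturbed and 1.71 FPKM in control cells, 3.16-fold lower. Its log2 ratio of FPKM + 1 was -0.82, beside -1.62 for SLC31A2. The gene spans of SLC31A2 and FKBP15 overlap in the RefSeq table (GRCh38.p14), whereas the GENCODE 29 transcripts of SLC31A2 that match RefSeq share 0 exon bases with another gene. The library kit does not mark strand, so reads from any overlap cannot be assigned.

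**Figure D2:**
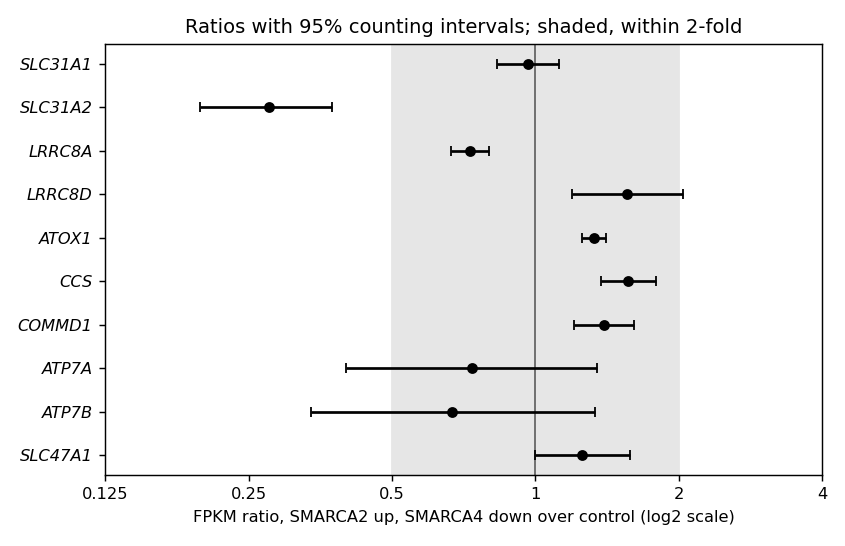
FPKM ratio of each gene, SMARCA2-up SMARCA4-down over control, on a log2 axis; bars are 95% counting intervals and the shaded band is within 2-fold. The interval of SLC31A2, from 0.198 to 0.374, is the only one that lies wholly outside the band.

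The volume-regulated anion channel is built from LRRC8A, which every channel needs, and partners from LRRC8B to LRRC8E that set what passes. Channels with LRRC8D let uncharged molecules through and have been reported to carry cisplatin and carboplatin into cells. LRRC8A was at 21.6 FPKM in perturbed cells and 29.7 FPKM in control cells, 1.37-fold lower (1.25 to 1.51). LRRC8D was at 4.74 FPKM in perturbed and 3.05 FPKM in control cells, 1.55-fold higher (1.20 to 2.04). Neither passed the rule of size, and their ratios lay on opposite sides of 1. LRRC8D per LRRC8A was 0.219 in perturbed cells and 0.103 in control cells.

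Of the 3 other subunits, 1 was lower by the rule and none was higher. LRRC8E was at 3.95 FPKM in perturbed cells and 9.26 FPKM in control cells, 2.35-fold lower (1.90 to 2.93). Its log2 ratio of -1.05 was near the limit, and it was -0.94 with both libraries scaled to a common sum and -0.95 when centred on the median ratio. It was -0.67 with a pseudocount of 5 FPKM, and all 3 settings ended the call. LRRC8C was at 1.80 FPKM in perturbed and 2.60 FPKM in control cells, and LRRC8B at 1.55 FPKM in perturbed and 0.938 FPKM in control cells.

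The shares of the partners differed between the 2 libraries. LRRC8D made up 39.4% of the summed FPKM of LRRC8B to LRRC8E in perturbed cells and 19.2% in control cells. LRRC8E made up 32.8% in perturbed and 58.4% in control cells. LRRC8E was 0.834 times LRRC8D in perturbed cells and 3.04 times in control cells. In perturbed cells the counting intervals of the levels, 4.01 to 5.59 FPKM for LRRC8D and 3.27 to 4.71 FPKM for LRRC8E, overlapped. The sum of the 4 partners per LRRC8A was 0.557 in perturbed and 0.534 in control cells. FPKM is a level of RNA, and the make-up of channels was not measured.

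**Figure D3:**
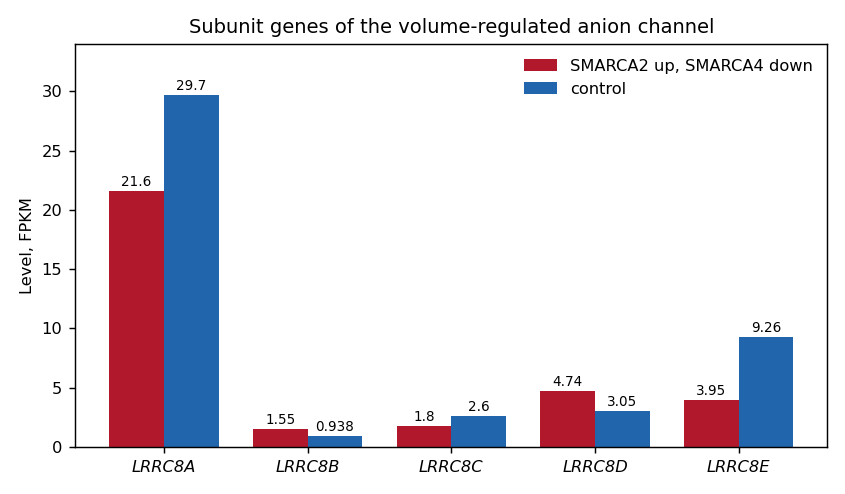
FPKM of the 5 subunit genes of the volume-regulated anion channel, 1 bar per library: red, SMARCA2-up SMARCA4-down; blue, control. LRRC8D is above LRRC8E in SMARCA2-up SMARCA4-down cells, at 4.74 against 3.95 FPKM, and below it in control cells, at 3.05 against 9.26 FPKM.

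The copper chaperones and COMMD1 were the most abundant of the 10 genes. ATOX1, the chaperone of the copper ATPases, was at 1008 FPKM in perturbed cells, the 168th highest gene, and 761 FPKM in control cells, the 232nd. This was 1.33-fold higher (1.25 to 1.41). CCS was at 51.6 FPKM in perturbed and 33.0 FPKM in control cells, 1.57-fold higher (1.37 to 1.79). COMMD1 has been reported to affect the stability and location of ATP7A and ATP7B, and it also restrains NF-κB. COMMD1 was at 70.0 FPKM in perturbed and 50.3 FPKM in control cells, 1.39-fold higher (1.20 to 1.61). All 3 were within 2-fold, with the ratio above 1.

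For CCS, the ratio to its client can be read within each library. SOD1 was at 914 FPKM in perturbed cells and 1066 FPKM in control cells, 17.7 times CCS in perturbed and 32.3 times in control cells. GENCODE 29 places 263 bases of the CCS transcript, 18.4% of it, under exons of CCDC87 on the opposite strand. CCDC87 was at 0.998 FPKM in perturbed and 1.71 FPKM in control cells, a log2 ratio of -0.44. Reads from the shared bases cannot be assigned by strand, and their part in the CCS values was not tested. COX17, which takes copper to mitochondria, was at 332 FPKM in perturbed and 249 FPKM in control cells, and ATOX1 was 3.04 times COX17 in perturbed and 3.06 times in control cells.

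The promoters of ATOX1, CCS and COMMD1, the intracellular copper proteins with ratios above 1, are shown, with that of SLC31A1 as a member whose ratio was near 1. The RefSeq promoter table (GRCh38.p14) held 8 of the 10 genes, and SLC31A2 and SLC47A1 were not matched. The 250 bases before the outermost annotated start are printed 5′ to 3′ on the gene's strand, at chr5:151758632-151758881 (minus strand), chr11:66592935-66593184 (plus), chr2:61888141-61888390 (plus) and chr9:113221294-113221543 (plus). Capitals mark matches on either strand to the GC box GGGCGG, which SP1 binds, the metal response element TGCACNC or TGCGCNC, which the metal sensor MTF1 binds, the antioxidant response element TGACNNNGC, and the AP-1 site TGANTCA.
ATOX1: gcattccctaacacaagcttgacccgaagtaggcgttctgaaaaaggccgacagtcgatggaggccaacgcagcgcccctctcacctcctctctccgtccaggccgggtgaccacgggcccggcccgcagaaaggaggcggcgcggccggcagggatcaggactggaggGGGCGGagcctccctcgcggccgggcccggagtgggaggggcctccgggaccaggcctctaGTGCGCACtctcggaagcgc
CCS: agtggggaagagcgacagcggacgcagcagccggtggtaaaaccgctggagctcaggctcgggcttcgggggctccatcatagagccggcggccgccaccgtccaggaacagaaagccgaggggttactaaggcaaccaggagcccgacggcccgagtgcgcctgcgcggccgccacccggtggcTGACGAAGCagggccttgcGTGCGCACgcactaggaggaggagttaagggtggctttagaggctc
COMMD1: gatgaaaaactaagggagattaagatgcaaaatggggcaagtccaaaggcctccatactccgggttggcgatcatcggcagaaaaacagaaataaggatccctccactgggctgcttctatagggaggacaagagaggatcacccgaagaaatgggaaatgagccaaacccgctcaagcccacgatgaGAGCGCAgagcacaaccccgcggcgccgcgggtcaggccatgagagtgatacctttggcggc
SLC31A1: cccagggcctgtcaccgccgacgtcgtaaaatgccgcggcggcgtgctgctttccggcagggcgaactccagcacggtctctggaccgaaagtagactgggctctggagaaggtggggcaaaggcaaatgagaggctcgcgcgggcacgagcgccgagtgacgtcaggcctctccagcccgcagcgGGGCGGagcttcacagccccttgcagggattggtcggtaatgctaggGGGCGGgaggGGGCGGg

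The metal response element was present in 3 of the 8 promoters, those of ATOX1, CCS and COMMD1. It was in 24.8% of the 35116 promoters in the table, which cover every annotated start. In ATOX1 and in CCS, 1 stretch of 8 bases matched on both strands, and COMMD1 had 1 match. COMMD1 and ATP7B have 3 annotated starts each, and LRRC8A and LRRC8D have 2 each. Only the outermost start of each member was searched, so the count of 3 may depend on this choice. LRRC8D, whose ratio was also above 1, held none. The GC box was present in 5 of the 8, including SLC31A1 with 3 matches and ATOX1 with 1, and in 42.6% of all promoters. The antioxidant response element was in CCS alone, against 10.9% of all promoters, and the AP-1 site in 0 of the 8, against 6.57%. With 8 promoters, none of these counts can be told from the share over all promoters. No match overlapped one of another motif. These are letters in a window, chosen for display after the ratios were known, and binding was not measured.

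The copper ATPases were low. ATP7A, the copper ATPase mutated in Menkes disease, was at 0.293 FPKM in perturbed cells, on about 21.2 fragments, and at 0.398 FPKM in control cells, on about 29.5. ATP7B, its relative mutated in Wilson disease and linked to cisplatin resistance in ovarian cancer, was at 0.291 FPKM in perturbed cells, on about 15.9 fragments, and at 0.436 FPKM in control cells, on about 24.3. The levels of the pair could not be told apart within either library. The folds, 0.736 (0.401 to 1.34) for ATP7A and 0.666 (0.338 to 1.34) for ATP7B, had intervals that held 1, so at this depth a 2-fold decrease could not be told from no difference. SLC31A1 was 28.5 times ATP7A in perturbed and 21.8 times in control cells, and 28.7 times ATP7B in perturbed and 19.8 times in control cells.

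SLC47A1, also called MATE1, exchanges protons for organic cations, has been reported to carry cisplatin, and is best known from the kidney. It was at 6.34 FPKM in perturbed cells and 5.06 FPKM in control cells, 1.25-fold higher, with a counting interval of 0.998 to 1.58 that just held 1. SLC47A1 was thus above both copper ATPases in each library. Over all 10 genes, 6 had an interval that did not hold 1, 4 of them higher and 2 lower. All 6 were among the 8 genes at 1 FPKM or more. Of all genes at that level with a known transcript length, 71.9% had such an interval, 32.2% higher and 39.6% lower, so the share among the members is near the background.

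**Figure D4:**
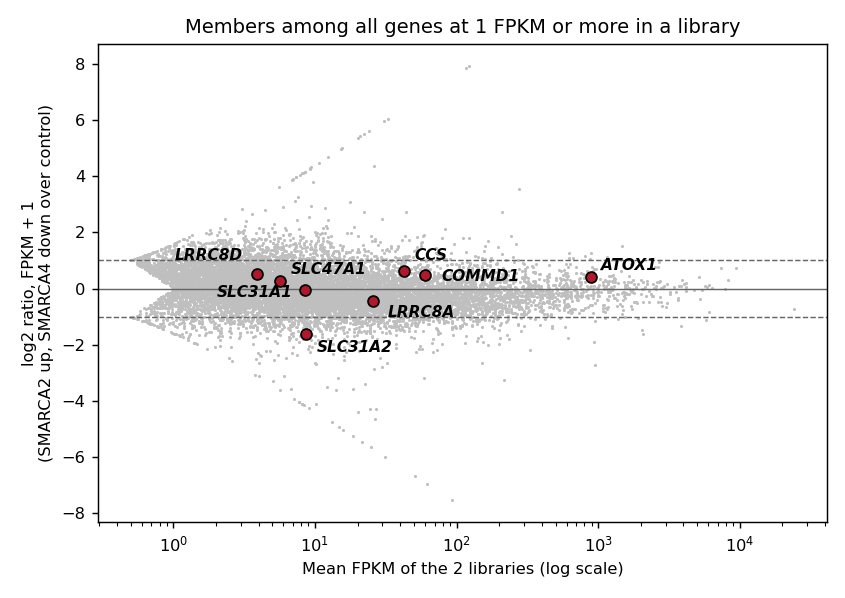
Each grey point is 1 of 11785 genes: its mean FPKM (log axis) and its log2 ratio of FPKM + 1, SMARCA2-up SMARCA4-down over control; dashed lines mark the 2-fold rule. The 8 labelled genes lie inside the cloud, and SLC31A2, at -1.62, is the only one past a dashed line.

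The wider copper and platinum pathway was described with 9 lists of 72 genes, all measured. Of these, 58 were at 1 FPKM or more in a library, 2 were higher and 4 were lower. These are 3.45% and 6.9% of the 58, beside 7.85% and 7.61% over all genes at this level. The lower share is near the background, and a count of 2 is too small to place the higher share below the background. The counts of single lists are too small to be read against it. The median log2 ratio of the 58 was -0.17, beside -0.06 over all genes at this level.

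Partners of COMMD1 had no gene past the rule among 12, with 5 ratios above 0 and 7 below and a median of -0.27. The most abundant by the mean of both libraries, COMMD4 and COMMD5, stood at 236 FPKM in perturbed and 156 FPKM in control cells, and at 182 FPKM in perturbed and 235 FPKM in control cells. COMMD8, chosen after its values were seen, was at 13.3 FPKM in perturbed and 27.7 FPKM in control cells, just short of the rule. COMMD1 binds such relatives and CCDC22 in complexes that sort membrane proteins, and COMMD1 was 2.61 times CCDC22 in perturbed cells and 1.31 times in control cells. Of 10 genes of the retromer and of copper ATPase trafficking, none passed the rule and the median was -0.12. CLU, a chaperone that binds the copper ATPases, was at 292 FPKM in perturbed and 231 FPKM in control cells, and the retromer subunit VPS29 at 114 FPKM in perturbed and 145 FPKM in control cells. The log2 ratios of 3 of these 10 genes were above 0 and those of 7 below. VPS35, a retromer subunit chosen after its values were seen, was at 68.6 FPKM in perturbed and 129 FPKM in control cells.

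Of 8 genes that deliver copper to mitochondria, 1 was lower, COX11, which inserts copper into cytochrome c oxidase, at 21.7 FPKM in perturbed cells and 49.4 FPKM in control cells. The list's median was -0.27. With trends on length, GC content and level removed, the log2 ratio of COX11 fell short of the rule, at -0.86. Of 15 copper enzymes, 9 were at 1 FPKM or more and 1 was higher, LOXL1, a secreted enzyme that crosslinks elastin, at 10.2 FPKM in perturbed and 2.97 FPKM in control cells, 3.45-fold higher (2.55 to 4.69). With a pseudocount of 5 FPKM its log2 ratio was 0.94, short of the rule. Of 10 enzymes of protein lipoylation and the lipoylated complexes, which are sensitive to excess copper, 2 were lower and none higher, with a median of -0.28. DLAT, a lipoylated subunit of pyruvate dehydrogenase, was at 10.3 FPKM in perturbed and 25.1 FPKM in control cells, and LIPT2, a lipoyl transferase, at 9.67 FPKM in perturbed and 23.4 FPKM in control cells. With a pseudocount of 5 FPKM the log2 ratios of both fell short of the rule, DLAT at -0.98 and LIPT2 at -0.96.

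Of 4 regulators, 1 was higher. XIAP, known as a caspase inhibitor, is also a ubiquitin ligase that acts on COMMD1 and CCS proteins. It was at 2.55 FPKM in perturbed cells and 0.656 FPKM in control cells, 3.89-fold higher (2.80 to 5.40). Its log2 ratio of 1.10 was 0.71 with trends on length, GC content and level removed and 0.42 with a pseudocount of 5 FPKM, short of the rule in both. It also fell short of the filters of 5 FPKM in a library and of 1 FPKM in both libraries. The metal sensor MTF1 was at 3.33 FPKM in perturbed and 3.88 FPKM in control cells. SP1, reported to regulate SLC31A1 transcription, was at 4.34 FPKM in perturbed and 2.05 FPKM in control cells, 2.12-fold higher (1.65 to 2.75). Its log2 ratio of 0.81 fell short of the rule, which SP1 passed with a pseudocount of 0.1 FPKM.

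Of 6 other reported platinum transporters, only TMEM205, a membrane protein linked to cisplatin resistance, was at 1 FPKM or more, at 1360 FPKM in perturbed and 2069 FPKM in control cells. SLC47A2 was at 0.386 FPKM in perturbed and 0.256 FPKM in control cells. The organic cation transporters SLC22A2 and SLC22A3 were listed at 0 in both libraries. ABCC2, an efflux pump, was at 0.0215 FPKM in perturbed and 0.211 FPKM in control cells, on about 1.07 fragments in perturbed and 10.7 in control cells. Of 4 metalloreductases, which can reduce copper before SLC31A1 can take it up, CYBRD1 was the only one at this level, at 9.48 FPKM in perturbed and 9.56 FPKM in control cells, and STEAP2 was at 0.930 FPKM in perturbed and 0.512 FPKM in control cells.

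**Figure D5:**
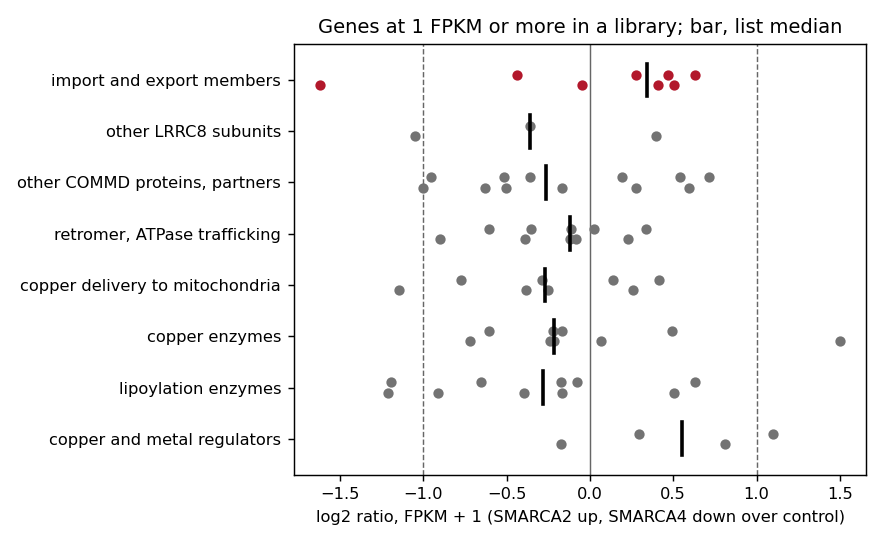
Log2 ratio of FPKM + 1, SMARCA2-up SMARCA4-down over control, for genes at 1 FPKM or more in a library: red, the transport genes; grey, related lists with at least 3 such genes; black bars, list medians; dashed lines, the 2-fold rule. The transport genes have a median of 0.34 and the COMMD1 partners one of -0.27, and most points of every list lie between the dashed lines.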

How the data were processed

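Each library came with a table of FPKM made by the authors, 1 value per gene symbol, per the file headers. Per the submitters' processing notes, the tools were Cuffdiff 2.2.1, TopHat2 2.1.1, SAMtools 0.1.18 and Bowtie2 2.2.8, on hg19. The annotation used, the filters and how libraries were scaled to each other are not given in these sources. Per the labels' protocols, cDNA was made with a SMART-Seq HT kit and libraries with Nextera XT.

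Depth was estimated in Python 3.11.15 (numpy 2.4.6, scipy 1.17.1) from the pile of values at 1 fragment, over genes with 1 RefSeq-matched transcript in GENCODE 29, with a window 2% wide. The best fit shortened transcripts by 200 bases. Fragment numbers used the median RefSeq-matched length, where at least 300 bases (92.5% of genes that reached 1 FPKM). The deposited lengths may differ, and PCR copies are not independent molecules, so intervals are too narrow. The method was tested on simulated counts made with the same length model and with counting error only. PCR copies and wrong lengths were not simulated. GENCODE and RefSeq are on GRCh38, another build, so they gave lengths, overlaps, gene order and promoters only.

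Members, lists and rules were chosen with earlier results of these data known. Named were all 10 members, SMARCA2 and SMARCA4, pathway list genes past the rule or else the most abundant 2 by mean FPKM, and neighbours of members past the rule. A few others, among them the cell type markers, were chosen after their values were seen.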

Additional observations from a re-analysis of the deposited data

How the results depend on the processing

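The alternatives were pseudocounts of 0.1 and 5 FPKM, scaling to a common sum, centring on the median ratio, scaling by a trimmed mean, removal of trends on length, GC content and level, 3 other level filters, and rules of 1.5-fold and 4-fold. SLC31A2 was the only member called lower under each of these except the 4-fold rule, where 0 members were lower. The count of higher members was 0 under each except the 1.5-fold rule, where it was 1, CCS. The log2 ratio of SLC31A2 ranged from -1.83 to -1.09. Of the 10 members, 9 kept the sign of their ratio; that of SLC31A1, -0.05, was 0.08 with a common sum and 0.05 when centred. The trend fit gave no value for ATP7A and ATP7B, which were below its level filter. The members' median was 0.36 and 0.22 with pseudocounts of 0.1 and 5 FPKM, 0.47 with a common sum, 0.44 when centred, 0.40 with trends removed, 0.12 with no filter and 0.28 at 5 FPKM in a library. The count of higher list genes, 2 (LOXL1 and XIAP), was 4 and 0 with pseudocounts of 0.1 and 5 FPKM, 1 at 5 FPKM in a library, 1 at 1 FPKM in both libraries, 6 at 1.5-fold and 0 at 4-fold; with trends removed it was 2, with GCSH in place of XIAP. The count of lower list genes, 4, was 1 (COX11) with a pseudocount of 5 FPKM, 5 with a pseudocount of 0.1 FPKM and with the trimmed mean, 3 with a common sum and when centred, 15 at 1.5-fold and 0 at 4-fold; with trends removed it was 4, with SCO1 in place of COX11. Over all genes, 925 were higher and 897 lower; a pseudocount of 5 FPKM left 219 higher and 380 lower, centring 1158 and 684, and a common sum 1257 and 685, which moved the median of all genes at 1 FPKM or more from -0.06 to 0.08. The causes were not tested. Under the 1.5-fold rule, 19.1% of the 11785 genes were called higher and 21.3% lower. With a pseudocount of 0.1 FPKM these shares were 13.8% and 10.8%, and under the 4-fold rule 0.602% and 0.713%. The counts of list genes and members under these settings were not tested against such shares. No shift of the lists is read from 15 lower beside 6 higher. No paired analysis was possible because each group has 1 library. At this depth, folds of ATP7A and ATP7B under about 2 could not be seen.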
